A study of Mus musculus with 37 samples.

Results

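Galactosylceramidase (Galc) and 7 other lysosomal genes, Hexa, Asah1, Ctsl, Ctsb, Ctsd, Lamp1 and Lamp2, were followed through primary mouse astrocytes of 2 strains. The genes were taken by name: each probe set that the array's annotation assigns to one of them, under its present or an older symbol, was kept, which gave 18 probe sets for these 8 of the 18193 genes named in the table. The 8 genes were chosen from earlier results of these same arrays, the B6 minus 129 difference among them, so strain differences are described here without a test; for comparison, 25.2% of the 25579 probe sets tested passed an adjusted p of 0.05 between the strains in limma. The comparisons of Cdca7l with vector and of males with females were tested.

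The astrocytes came from newborn C57BL/6J (B6) or 129S4/SvJae (129) mice of either sex. Each culture was electroporated with pcDNA3.1-hygro, a plasmid with hygromycin resistance, that was empty (vector) or carried Cdca7l, and the design describes the isolates as independent and stably transfected. Among 129 arrays, 4 of females and 5 of males carried Cdca7l and the same numbers vector, whereas B6 had 4 female and 5 male arrays with Cdca7l and 5 of either sex with vector. All 37 arrays therefore came from plasmid-bearing astrocytes in culture, and no untransfected cells were among them. RNA was amplified from a small input before hybridisation, and values are log2 signals after background adjustment by GCRMA.

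Lysosomes are acidic compartments in which hydrolases break down lipids, proteins and sugar chains. Galc removes galactose from galactosylceramide, the main glycolipid of myelin, and from psychosine; its loss causes globoid cell leukodystrophy (Krabbe disease), in which astrocytes and macrophages react to the stored lipid. Many lysosomal genes carry an E-box in their promoters, to which the transcription factors TFEB and TFE3 can bind.

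RefSeq's promoter table for GRCm38.p6 held 6 of the 8 genes, Galc, Hexa, Ctsl, Ctsd, Lamp1 and Lamp2. The E-box CACGTG, whose letters are the same on both strands, lay within the 250 bases before the start of 3 of these 6 genes and of 6.02% of all 32851 promoters. The longer TCACGTGA, which contains it and also reads the same on both strands, was in 1 of the 6 and in 0.785% of all. The promoters of Galc and Ctsl are shown because their probe sets separated the strains, and those of Ctsd and Lamp1 because they hold several E-boxes while the genes' levels hardly differed. Capitals mark the E-box or its longer form, and each run ends at the base before the start.
Galc, chr12:98259460-98259709, minus strand: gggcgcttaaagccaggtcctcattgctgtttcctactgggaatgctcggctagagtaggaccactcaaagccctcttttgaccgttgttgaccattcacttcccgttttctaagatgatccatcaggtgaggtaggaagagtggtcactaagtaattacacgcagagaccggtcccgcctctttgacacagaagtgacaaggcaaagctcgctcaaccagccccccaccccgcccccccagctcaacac
Ctsl, chr13:64370521-64370770, minus strand: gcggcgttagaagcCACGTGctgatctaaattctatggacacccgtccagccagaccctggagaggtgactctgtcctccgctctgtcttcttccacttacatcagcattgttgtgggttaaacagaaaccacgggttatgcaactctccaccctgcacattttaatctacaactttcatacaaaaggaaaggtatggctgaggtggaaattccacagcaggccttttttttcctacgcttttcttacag
Ctsd, chr7:142387828-142388077, minus strand: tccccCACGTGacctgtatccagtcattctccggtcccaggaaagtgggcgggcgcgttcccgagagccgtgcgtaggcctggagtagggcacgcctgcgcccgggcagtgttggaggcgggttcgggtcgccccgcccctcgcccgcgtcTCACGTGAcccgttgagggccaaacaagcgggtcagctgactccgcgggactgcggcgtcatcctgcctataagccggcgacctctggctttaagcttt
Lamp1, chr8:13158911-13159160, plus strand: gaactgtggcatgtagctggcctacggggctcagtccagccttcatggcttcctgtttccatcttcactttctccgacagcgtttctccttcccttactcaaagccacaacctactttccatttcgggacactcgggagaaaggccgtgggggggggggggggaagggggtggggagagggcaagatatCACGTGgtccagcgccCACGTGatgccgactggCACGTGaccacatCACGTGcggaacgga
The E-box of Ctsl began 236 bases before the start, the pair of Ctsd 245 and 98 bases before it, and the 4 of Lamp1 61, 45, 28 and 15 bases before it. No match was found in these windows of Galc, Hexa or Lamp2. The sequences are those of the reference assembly, and no 129 sequence was used here.

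A few facts of the whole data set bear on these genes. The median of the table, 3.189, was taken as the background level, and probe sets above it on 4 arrays or more were tested. Among the 18 probe sets 16 were tested, and Galc 1449900_at and Ctsb 1444987_at did not pass. Cdca7l itself was 4.61 ± 0.484 (SE) higher on the log2 scale with its plasmid (limma adjusted p = 1.25e-06). The array of 129 female vector 1(3) had an upper quartile of 8.36, against 9.03 to 9.51 on the other 36. On the array labelled B6 female vector 5.1(1), Xist read 2.40 and Eif2s3y 11.91, where the other female arrays gave Xist of 10.71 to 12.20 and the male arrays Eif2s3y of 11.73 to 12.71. Several results are also given without them. Of the 10 astrocyte markers all passed the filter and 8 exceeded background on all 37 arrays.

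Galc was read by 3 probe sets that did not agree between the strains. Probe set 1452907_at was bright in B6 astrocytes and near background in 129 astrocytes, 1420547_at was well above background in both strains with overlapping values, and 1449900_at stayed at background in nearly all arrays. Lysosomal galactosylceramidase RNA was thus detected in both strains by one probe set and in one strain by another.

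On 1452907_at, the log2 values in 129 females were 2.83, 2.73, 3.94 and 3.78 with vector and 2.45, 2.74, 2.68 and 2.75 with Cdca7l. In 129 males they were 2.61, 2.69, 2.79, 2.65 and 2.61 with vector and 2.36, 2.64, 2.87, 2.18 and 3.09 with Cdca7l. Only 2 of the 18 arrays of 129 cells, both of females with vector, exceeded background. In B6 females the values were 12.03, 12.20, 12.08, 12.04 and 12.11 with vector and 12.24, 12.35, 12.07 and 12.22 with Cdca7l. In B6 males they were 11.89, 12.21, 11.72, 11.70 and 12.08 with vector and 12.32, 12.05, 11.84, 11.31 and 11.84 with Cdca7l. The strains did not overlap: the lowest B6 array lay 7.37 log2 units above the highest 129 array. The difference, B6 minus 129 over the 4 sex and construct groups with equal weight, was 9.21 ± 0.104 (SE), and it ranged from 8.77 to 9.57 among those 4 groups. With values below background raised to it, the mean difference was 8.75, or 432-fold in the signal of this probe set. Non-overlapping strains with B6 higher occurred in 0.391% of the 25579 probe sets tested, and in 2 of the 16 tested here, this one and Ctsl 1457724_at; the genes were chosen with this in view, so nothing is read from the 2 counts.

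**Figure D1:**
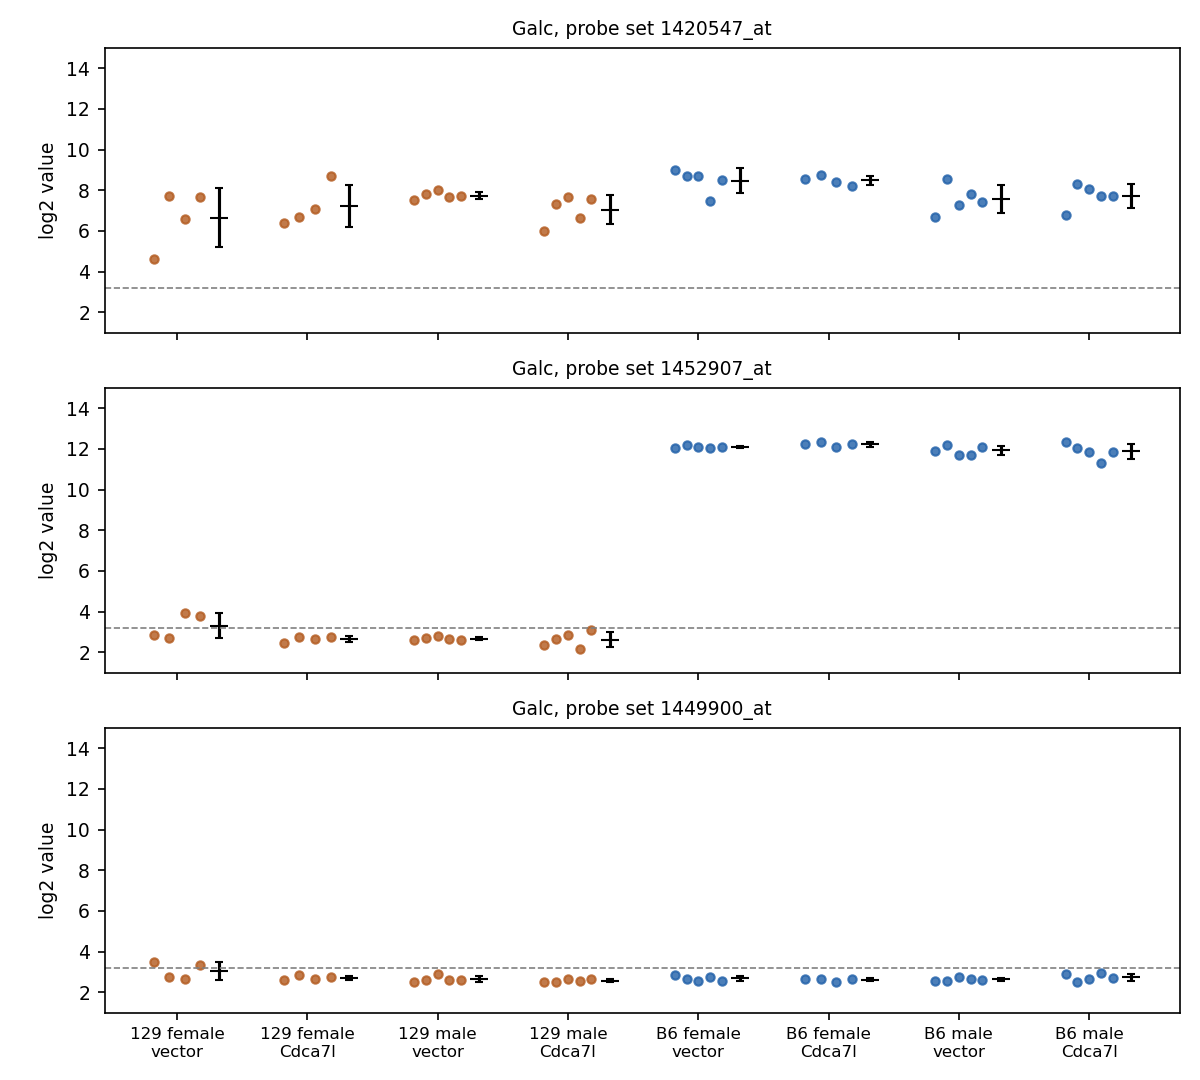
Log2 value of the 3 Galc probe sets on each of the 37 arrays, by strain, sex and construct; points are arrays, the bars beside them are the mean and SD, and the dashed line is the background level of 3.189. Probe set 1452907_at sits at 11.31 to 12.35 in B6 and at 2.18 to 3.94 in 129, while 1420547_at overlaps between the strains.

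On 1420547_at, the 129 females gave 4.61, 7.74, 6.58 and 7.69 with vector and 6.39, 6.67, 7.06 and 8.70 with Cdca7l. The 129 males gave 7.54, 7.81, 7.99, 7.66 and 7.70 with vector and 6.00, 7.33, 7.68, 6.65 and 7.56 with Cdca7l. All 18 arrays exceeded background, and the lowest of them, 4.61, was 129 female vector 1(3), the array with the low upper quartile. The B6 females gave 9.01, 8.68, 8.71, 7.47 and 8.52 with vector and 8.55, 8.76, 8.40 and 8.21 with Cdca7l. The B6 males gave 6.69, 8.56, 7.27, 7.80 and 7.43 with vector and 6.78, 8.32, 8.07, 7.71 and 7.72 with Cdca7l. The B6 female values lay above most others, except the 7.47 of the array labelled B6 female vector 5.1(1), which fell among the male values. B6 exceeded 129 by 0.90 ± 0.245 (SE), or 1.86-fold, by 0.73 without 129 female vector 1(3) and by 0.79 with both doubted arrays left out. The difference was 1.82 in females with vector, 1.27 in females with Cdca7l and 0.68 in males with Cdca7l, and it was -0.19 in males with vector, so the direction held in 3 of 4 groups.

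Probe set 1449900_at had a median of 2.64 in 129 and 2.67 in B6, and it exceeded background on 2 of 18 and 0 of 19 arrays. Its strain difference was -0.07 ± 0.058 (SE), a value between levels at background. Galc is also used as a marker of oligodendrocytes, and of 10 markers of that lineage 5, Mog, Mag and Sox10 among them, did not pass the filter. The other 5 were higher in B6 in 3 cases, with 2 called in limma and a median of 0.81. Their mean level, centred on the mean over arrays, ran from -1.45 to 1.42 in 129 groups and from -0.94 to 1.00 in B6 groups. The part of these markers in the Galc values was not tested.

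Hexa encodes the alpha subunit of beta-hexosaminidase, which removes N-acetylgalactosamine from GM2 ganglioside. Its single probe set, 1449024_a_at, ran from 12.20 to 13.18 with a median of 12.82 in 129, and from 12.39 to 13.24 with a median of 12.87 in B6. The strains overlapped over most of this range, and the difference was 0.08 ± 0.089 (SE), of either sign among the 4 sex and construct groups. Asah1, acid ceramidase, splits ceramide, the product of Galc, into sphingosine and fatty acid. Its probe set 1416735_at ran from 11.46 to 13.63 (median 13.42) in 129 and from 12.78 to 13.68 (median 13.24) in B6. The 11.46 again came from 129 female vector 1(3), where the other 3 arrays of that group read 13.48 to 13.56. The strain difference of Asah1 was 0.02 ± 0.144 (SE), and -0.11 without that array. With 1 probe set each, agreement between probe sets cannot be judged for Hexa or Asah1.

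Ctsl, cathepsin L, is a cysteine protease of the lysosome, and its 2 probe sets went apart between the strains as those of Galc did. Probe set 1451310_a_at was far above background on all 37 arrays in both strains, whereas 1457724_at was bright in B6 and at background on each of the 18 arrays of 129 cells.

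On 1457724_at, the B6 females read 9.09, 9.20, 9.02, 9.94 and 7.34 with vector and 8.68, 9.12, 9.47 and 6.24 with Cdca7l. The B6 males read 8.61, 8.82, 8.84, 8.59 and 8.94 with vector and 8.36, 9.70, 8.40, 9.96 and 9.49 with Cdca7l. The 2 lowest B6 values, 6.24 and 7.34, belonged to the 2 arrays with the clone label 6(3). Across the 129 arrays the value was 2.38 at the lowest, 2.49 at the median and 2.84 at the highest. The strains did not overlap, and the closest arrays were 3.40 log2 units apart. The fitted difference was 6.30 ± 0.214 (SE). With values below background raised to it, the mean difference on Ctsl 1457724_at was 49.2-fold in signal. The difference as deposited was 5.89 to 6.71 among the 4 sex and construct groups.

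On 1451310_a_at, the 129 arrays ran from 13.05 to 14.19 with a median of 13.76, and the B6 arrays from 13.16 to 13.88 with a median of 13.58. The strains overlapped, and the difference was -0.14 ± 0.098 (SE), opposite in sign to that of 1457724_at. It was -0.24 when each array was centred on its median.

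**Figure D2:**
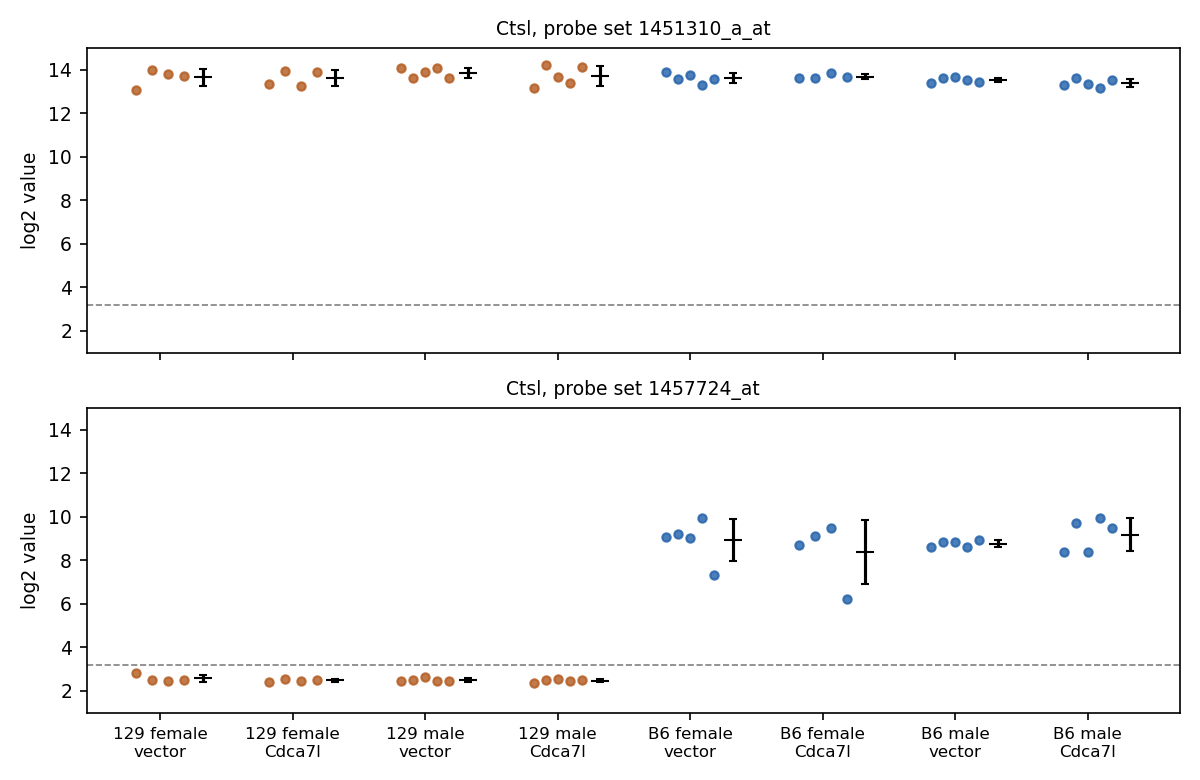
Log2 value of the 2 Ctsl probe sets on each of the 37 arrays, by strain, sex and construct, with mean and SD beside the points and the background level of 3.189 dashed. Probe set 1457724_at is at 6.24 to 9.96 in B6 and at 2.38 to 2.84 in 129, and 1451310_a_at overlaps between the strains near 13.6.

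Ctsb, cathepsin B, is a cysteine protease with both endopeptidase and carboxypeptidase activity. Of its 5 probe sets 4 exceeded background on all arrays, and these agreed in direction: each was higher in B6 in 4 of 4 sex and construct groups, with overlapping arrays. The fifth, 1444987_at, did not exceed background on any array. The differences were 0.17 ± 0.074 (SE) for 1417490_at, 0.66 ± 0.236 for 1448732_at, 0.82 ± 0.277 for 1417492_at and 0.75 ± 0.331 for 1417491_at. They lay above 0 in each of these 4 probe sets also after quantile normalization or centring of each array on its median, where 1417490_at fell to 0.08. Without 129 female vector 1(3) the differences were 0.20, 0.75, 0.97 and 0.91 in the same order.

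Single arrays of one strain lay further apart on Ctsb than the strain means did. On 1448732_at, 129 females read 12.72, 11.81, 11.29 and 10.97 with vector and 13.38, 11.32, 13.07 and 11.18 with Cdca7l. B6 females read 12.84, 13.61, 13.57, 13.04 and 11.55 with vector and 13.58, 13.67, 13.76 and 10.90 with Cdca7l. Both low B6 values, 11.55 and 10.90, were those of clone label 6(3), the same 2 arrays that were low on Ctsl 1457724_at. The 129 males stayed between 12.48 and 13.07 and the B6 males between 12.85 and 13.66. Of the other Ctsb probe sets, 1417490_at ran from 13.35 to 14.16 in 129 and from 13.79 to 14.27 in B6, 1417492_at from 9.03 to 12.89 and from 11.07 to 13.10, and 1417491_at from 9.39 to 13.08 and from 9.61 to 13.19.

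Ctsd, cathepsin D, is the aspartic protease of the lysosome. Its probe set 1448118_a_at ran from 13.52 to 13.97 (median 13.70) in 129 and from 13.41 to 13.88 (median 13.66) in B6. The strains overlapped, with a difference of -0.07 ± 0.055 (SE), and 3 of the 4 sex and construct groups were lower in B6.

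Lamp1 and Lamp2 are the abundant glycoproteins of the lysosomal membrane, and Lamp2 also serves as a receptor in chaperone-mediated autophagy. Lamp1 1415880_a_at varied least of the 16 tested probe sets, from 14.13 to 14.39 in 129 and from 14.01 to 14.39 in B6, and its strain difference was 0.02 ± 0.047 (SE). Centred on array medians it was -0.07. Lamp2 had 4 probe sets, all above background on all arrays. Of these, 1434503_s_at and 1428094_at were higher in B6 in 4 of 4 groups, by 0.14 ± 0.059 (SE) and 0.24 ± 0.092. The other two, 1416344_at and 1416343_a_at, differed by 0.02 ± 0.075 and 0.03 ± 0.099, with B6 higher in 2 and 3 of 4 groups, and both turned negative when arrays were centred on their medians or 129 female vector 1(3) was left out. Lamp2 1428094_at ran from 11.70 to 13.13 in 129 and from 12.62 to 13.43 in B6, its lowest value again being 129 female vector 1(3), without which its difference was 0.17. All 4 Lamp2 probe sets overlapped between the strains. Their average differences all lay above 0, from 0.02 to 0.24, and whether they differ from one another was not tested.

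**Figure D3:**
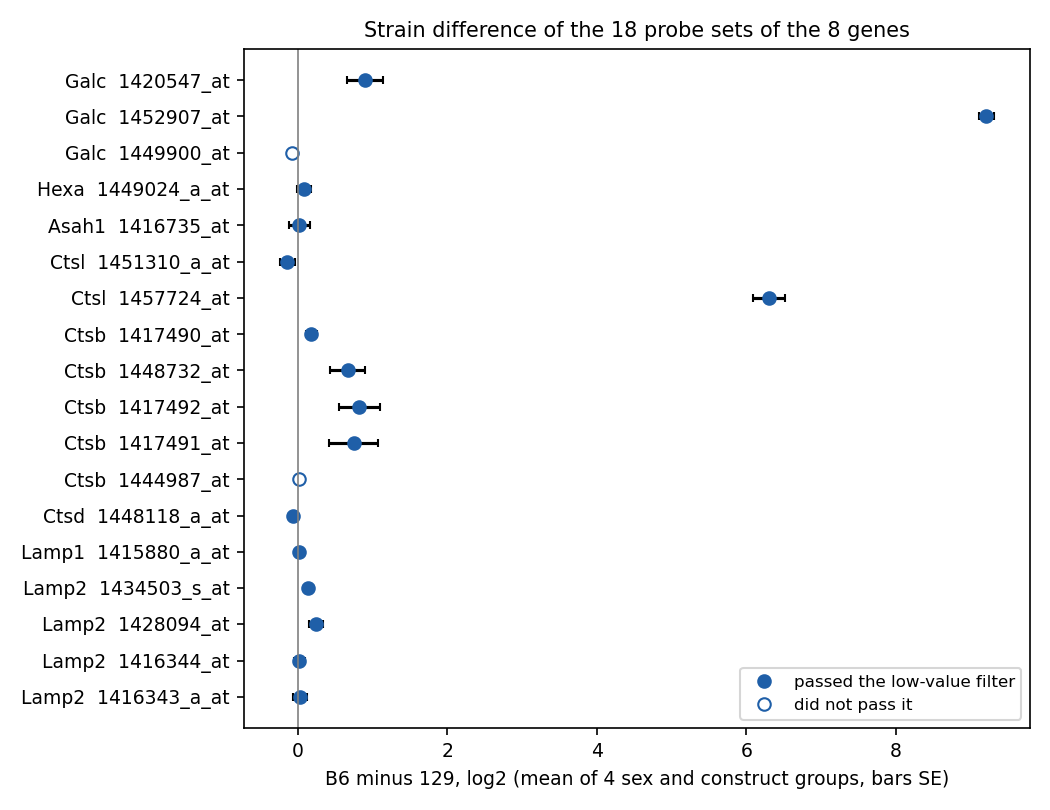
Difference between the strains, B6 minus 129 on the log2 scale, for the 18 probe sets of the 8 genes; points are the mean over the 4 sex and construct groups, bars are SE, and open points did not pass the filter on low values. Galc 1452907_at (9.21) and Ctsl 1457724_at (6.30) stand apart, and the other 16 lie between -0.14 and 0.90.

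Probe sets like Galc 1452907_at and Ctsl 1457724_at were counted in the whole table by a rule written after the values were seen. It asked for values above background on all arrays of one strain and on at most 2 arrays of the other. It also asked for at least 3 log2 units between the closest arrays. These limits lie at or near the values of Galc, above background on 2 arrays of 129 cells, and of Ctsl, with a gap of 3.40. The rule was met by 10 probe sets with 1 gene name, a count that therefore does not show how rare the pattern is. Of the 10, 7 were bright in B6, Galc 1452907_at and Ctsl 1457724_at among them. Of the 10 genes, 5 had another probe set above background on all arrays, and in 4 of those 5, Galc, Ctsl, Adi1 and Lztfl1, such a probe set differed by less than 1 log2 unit between the strains.

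The neighbours of Galc along chromosome 12 were looked up in the order of annotated genes. Of the 3 on each side, only Gpr65 and Kcnk10 had a probe set. Gpr65 did not pass the filter. Kcnk10, a potassium channel gene, differed by 1.50 ± 0.323 (SE) on 1438088_at (limma adjusted p = 0.00116) and by -0.13 ± 0.236 on 1431613_a_at (limma adjusted p = 0.725). Near Ctsl on chromosome 13, a set looked at after its values were seen, Prxl2c differed by 3.22 ± 0.282 on 1434441_at (limma adjusted p = 2.75e-10) while on 1421018_at both strain means, 3.10 in 129 and 2.34 in B6, lay below background. Cdk20 differed by 0.76 ± 0.261 on 1422494_s_at (limma adjusted p = 0.0306), with means of 2.66 in 129, below background, and 3.41 in B6.

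The genes most like Galc were sought by Pearson correlation with its probe set of the highest mean, 1420547_at. Over the 37 arrays these were Cox15 (r = 0.85), Pkn2 (0.83), Rab18 (0.82), Ostm1 (0.81), a lysosomal membrane protein gene, and Ythdf1 (0.81). With each group's mean removed they were Plekha3 (0.92), Vps50 (0.88), Nudcd1 (0.87), Socs6 (0.87) and Pafah1b2 (0.87), so none of the first 5 recurred. These values describe 37 arrays that share strain, sex and array level, the low array 129 female vector 1(3) among them.

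Whether Cdca7l altered these genes was tested in limma over all 25579 probe sets, on average and within each strain and sex. None of the 16 probe sets passed an adjusted p of 0.05 in any of the 5 comparisons, where 0.00782% of all probe sets passed on average and 0% within each group. Within the 4 groups Cdca7l itself was 3.87 to 5.10 higher and did not pass either (limma adjusted p of at least 0.157). The lack of calls within a strain and sex is therefore not read as a lack of effect. Averaged over strains and sexes, 9 of the 16 were higher with Cdca7l, the differences ran from -0.16, on Galc 1452907_at with its 129 arrays near background, to 0.25, and the median was 0.01 beside 0.02 over all probe sets. The smallest unadjusted p among them was 0.127, and the limma adjusted p-values were at least 0.999.

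For Galc 1420547_at the average difference, Cdca7l minus vector, was 0.01 ± 0.245 (SE), with a 95% interval of -0.49 to 0.51. Galc 1452907_at and Ctsl 1457724_at passed the filter through B6, so their values are given in B6: Galc 1452907_at differed by 0.13 ± 0.210 in females and -0.047 ± 0.198 in males. The value on 1420547_at had no stable sign, being -0.16 without 129 female vector 1(3), -0.06 without the array labelled B6 female vector 5.1(1) and -0.23 without both. Ctsl gave -0.06 ± 0.098 on 1451310_a_at, and on 1457724_at -0.54 ± 0.434 in B6 females and 0.42 ± 0.409 in B6 males. The interval of Galc 1420547_at allows changes of about 1.4-fold in either direction. It is not adjusted for the number of probe sets tested, while a call needed a limma adjusted p under 0.05. Changes larger than 1.4-fold could therefore also have gone uncalled. Microglial markers, which cells of the macrophage line with many lysosomes would carry, passed the filter in 8 of 16 genes; Cx3cr1, C1qa, Aif1, Itgam, Trem2, P2ry12, Fcgr3 and Ly86 did not. Their centred mean level was highest in 129 males with vector, from -1.37 to 5.55, against -1.63 to 1.24 in 129 males with Cdca7l. It ran from -1.34 to 4.16 in B6 females with vector, 4.16 on the array labelled B6 female vector 5.1(1), and from -1.12 to -0.81 in B6 females with Cdca7l. Its part in the values of the 8 genes was not tested.

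**Figure D4:**
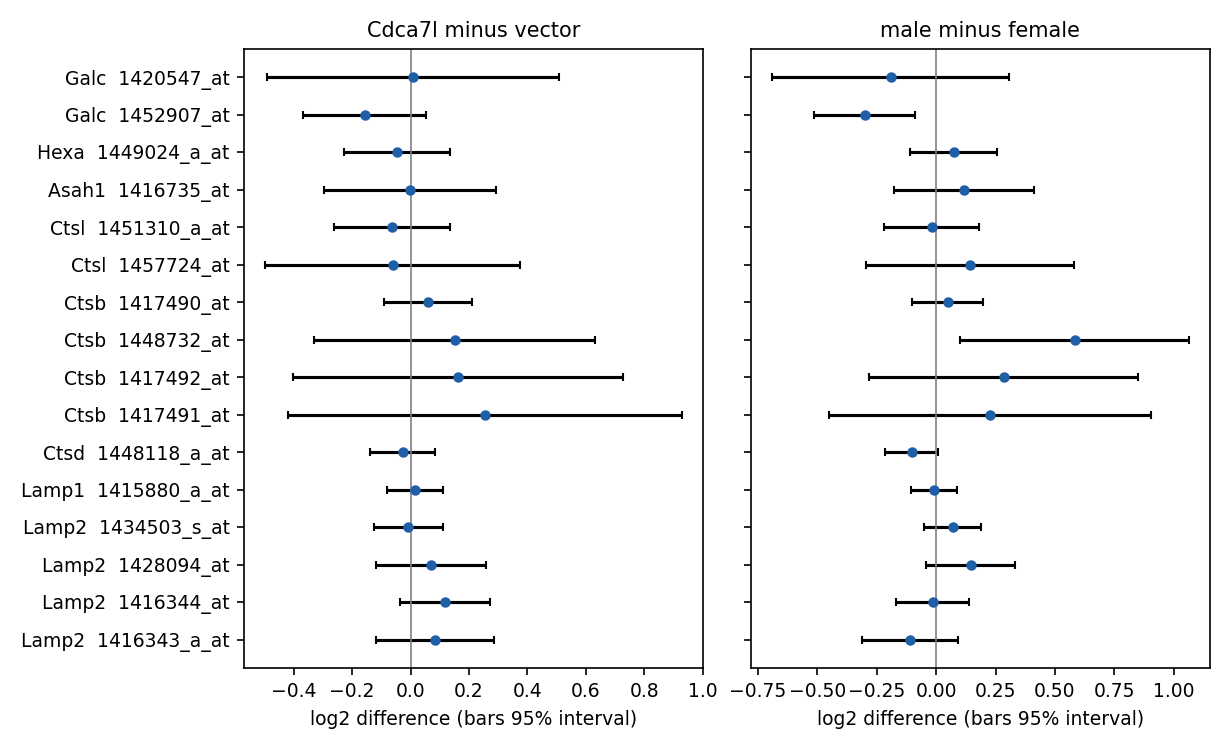
Log2 differences of the 16 tested probe sets between Cdca7l and vector (left) and between males and females (right), each averaged over the other factors; bars are 95% intervals from limma. On the left all intervals include 0, and on the right those of Galc 1452907_at and Ctsb 1448732_at do not, although neither passed after adjustment over all probe sets and Galc 1452907_at was near background in 129.

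Males and females did not differ past the threshold in any of the 16 probe sets, where 0.321% of all passed. Of the 16, 2 had an unadjusted p under 0.05, beside 18.1% of all probe sets. Galc 1452907_at was -0.30 ± 0.104 (SE) in males less females (limma adjusted p = 0.149). This average takes in the 129 arrays, of which 16 of 18 were at background, and in B6 its group means were 12.09 and 12.22 in females and 11.92 and 11.87 in males. Ctsb 1448732_at was 0.58 ± 0.236 in males less females (limma adjusted p = 0.203). Leaving out the array labelled B6 female vector 5.1(1) gave -0.30 for the former (limma adjusted p = 0.131) and 0.59 for the latter (limma adjusted p = 0.179), and without 129 female vector 1(3) they were -0.34 (limma adjusted p = 0.0847) and 0.67 (limma adjusted p = 0.123).

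The difference between the strains in the effect of sex, or in that of Cdca7l, and the difference between the sexes in the effect of Cdca7l were tested as interactions, and no probe set of the 8 genes or of the table passed (0%). The largest member value was the strain by sex term of Galc 1420547_at, -1.31 ± 0.490 (limma adjusted p = 0.221): B6 females were the higher sex in B6 and the 129 males in the vector group of 129. Without the array labelled B6 female vector 5.1(1) it was -1.43 (limma adjusted p = 0.190), and without 129 female vector 1(3) -0.96 (limma adjusted p = 0.292). An unadjusted p under 0.05 for this term was found in 15.3% of all probe sets. A fit with array weights, which ran from 0.0357 to 10.1 and whose estimate stopped before its tolerance, was the exception among the settings tried. It called Galc 1452907_at (-0.48), Ctsb 1448732_at (0.69) and Ctsb 1417492_at (0.57) between the sexes, with limma adjusted p-values of 0.000300, 0.00968 and 0.0381, and it called 25.2% of all probe sets. It also called the strain by sex terms of Galc 1420547_at (-1.31), Ctsb 1448732_at (-1.64) and Ctsb 1417492_at (-1.52), with limma adjusted p-values of 0.0168, 0.00278 and 0.00819, and 24.3% of all probe sets.

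The wider lysosomal and sphingolipid pathway was described with 7 lists that held 115 further genes, 100 of them tested, each by its probe set of the highest mean. Between the strains 18 of the 100 were higher in B6 and 6 lower (limma adjusted p under 0.05), where 16.5% and 10.4% of 12139 genes were. The pathway as a whole was thus near the background share, and with each array centred on its median the counts were 13 and 12. Of all calls in the table, 58.0% were higher in B6 as deposited, 52.3% after quantile normalization and 41.8% after that centring.

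Hydrolases of sphingolipids and sugar chains, the enzymes nearest Galc, were called higher in B6 for 7 of 20 and lower for 0, with a median of 0.17 beside 0.00 over all probe sets; after array centring the counts were 6 and 1, and after quantile normalization 8 and 1. Arsb, which removes sulfate from dermatan sulfate, was 1.06 ± 0.166 (SE) higher (limma adjusted p = 2.24e-05). Naaa, which hydrolyses N-acylethanolamines, was 0.90 ± 0.209 higher (limma adjusted p = 0.00237). Another Naaa probe set read 0.21 (limma adjusted p = 0.267). Further Arsb probe sets read 1.00 (limma adjusted p = 0.000423) and, near background, 0.24 (limma adjusted p = 0.299). Idua, alpha-L-iduronidase, was 1.29 ± 0.303 higher (limma adjusted p = 0.00258), and Manba, beta-mannosidase, 0.87 ± 0.220 higher (limma adjusted p = 0.00440). Psap, whose saposins activate Galc, read 0.21 ± 0.081 (limma adjusted p = 0.0593), which did not pass. Arsa, which yields galactosylceramide from sulfatide, read 0.69 ± 0.279 (limma adjusted p = 0.0663). Gla, in the same list, went the other way, at -0.85 ± 0.340 (limma adjusted p = 0.0643), and did not pass either. Called or not, 16 of the 20 genes were higher in B6.

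The counts of the smaller lists stand beside 16.5% of all genes called higher in B6 and 10.4% called lower. Of the other acid hydrolases 3 of 9 were called higher and 0 lower: Plbd2 (0.72), Scpep1 (0.95) and Acp2 (0.38). After array centring Acp2 did not pass and the counts were 2 and 1. Further probe sets read 0.22 for Plbd2 (limma adjusted p = 0.278) and 1.88 for Scpep1 (limma adjusted p = 0.000267). Those of Acp2 read 0.11 and 0.16 (limma adjusted p = 0.470 and 0.408). Of 12 further cathepsins and their inhibitors 2 were higher and 2 lower; Ctso was 0.58 higher and Ctsc, which activates granule proteases, -0.67, while Ctse and Ctsw lay near background. Of 15 membrane proteins Scarb2 (0.64) and Cln3 (0.93) were higher and Slc17a5 (-0.34) lower. Another Scarb2 probe set read -0.22 (limma adjusted p = 0.140) and another of Cln3 0.32 (limma adjusted p = 0.123). Slc17a5 did not pass with a trended prior (limma adjusted p = 0.0694), with no filter (limma adjusted p = 0.0660) or in 27 of 37 fits that left out 1 array. Of 15 subunits of the proton pump that acidifies the lysosome, none was higher, and Atp6v1c1 (-0.23) and Atp6v1g1 (-0.16) were lower. Among 14 genes of biogenesis and sorting Mitf (0.63) and Sort1 (0.57) were higher and none was lower, and after array centring 1 was higher and 3 lower. Of 15 genes of ceramide and galactosphingolipid metabolism Cers4 (0.67) and Sgpl1 (0.25) were higher and Sptlc2 (-0.55) lower, and after centring 0 were higher and 1 lower. When arrays sharing a clone label formed a random block, 6 of the called genes no longer passed, Gm2a, Acp2, Ctsw, Slc17a5, Cers4 and Sptlc2, with limma adjusted p-values of 0.0622 to 0.114. In the averaged Cdca7l comparison, in that of the sexes and in the strain by sex term, none of the 100 genes was called.

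**Figure D5:**
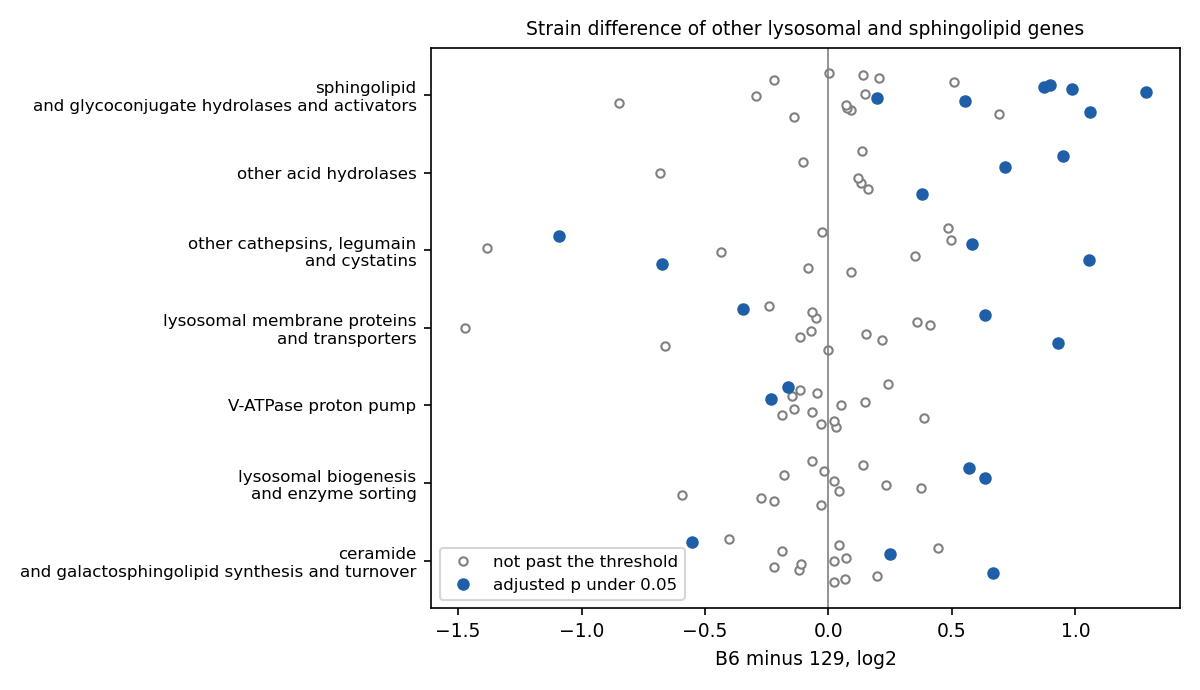
Difference between the strains, B6 minus 129 on the log2 scale, of 100 other lysosomal and sphingolipid genes in 7 lists, 1 point per gene; filled points passed an adjusted p of 0.05 in limma. Hydrolases of sphingolipids and sugar chains have 7 filled points, all above 0, and the proton pump has 2, both below 0.

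Markers of cell types were also compared between the strains, where 25.2% of all probe sets were called. Those of the oligodendrocyte lineage are given beside Galc. Fibroblast and meningeal markers were higher in B6 in 1 of 8 genes, with 4 called and a median of -2.08, and their centred mean level ran from -1.03 to 3.80 in 129 groups and from -2.34 to -0.28 in B6 groups. Astrocyte markers were higher in B6 in 9 of 10, with 4 called and a median of 0.76. Microglial markers were higher in B6 in 1 of 8, with 0 called and a median of -0.67. Of the neuron markers 3 of 6 were higher, with 4 called and a median of 0.39, and of the endothelial markers 0 of 2, with 1 called and a median of -1.34. Their part in the strain differences of the 8 genes and of the pathway was not tested, and in bulk RNA fewer cells of a type cannot be told apart from less RNA per cell.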

How the data were processed

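Expression was measured on 37 one-colour arrays, 18 of 129 and 19 of B6 astrocytes. The deposited table holds log2 values of 45101 probe sets, from 1.17 to 15.26, which were used as they stand. GCRMA and Partek 6.5 are named in the submitters' processing notes; whether the authors ran GCRMA once over all arrays is not given in these sources. GCRMA compresses values near background, so differences between dim values are not read as changes.

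Gene names came from the platform annotation, updated by Entrez ID to GRCm38.p6: 34958 probe sets had 1 symbol, of which 34754 matched by Entrez ID, 932 had several and 9211 none. No probe set with several symbols named one of the 8 genes. Leaving out 64 control and 19458 dim probe sets, 25579 were tested.

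All arrays entered 1 model of 8 group means in limma 3.58.1 under R 4.3.3, with 29 residual degrees of freedom, empirical Bayes moderation and Benjamini-Hochberg adjustment over 25579 probe sets in each of 9 comparisons, with a threshold of 0.05. The fit was also run on simulated data with independent noise on each array. That setting leaves out the shared clone labels, so nothing about error rates is read from it. The genes and the lists were chosen with earlier results of these data known. The naming rule covered each member, the 5 genes most like Galc by each measure, the 3 neighbours on each side and up to 4 called genes per list. Psap, Arsa, Gla and the Ctsl neighbours were named after their values were seen. Precision is limited by how many arrays there are, since log2 signals have no read depth.

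Arrays of one strain and sex share some clone labels between Cdca7l and vector. After removal of group means, arrays with one label correlated at 0.432 to 0.775 (B6 females, 3 pairs) and 0.376 to 0.572 (B6 males, 4 pairs). The correlations were 0.061 to 0.716 in 129 females and -0.0887 to 0.623 in 129 males. The low 129 values were those of female 2(3) and male 3(3), and the other 129 pairs ran from 0.416 to 0.716. The main model did not use the labels, so it took arrays sharing one as independent, also between the strains. As a random block the labels gave a correlation of 0.409 within a label. Strain calls were then 4249, against 6456 in the main model. Both replicate block alternatives used the shared labels of both strains. Alternatives covered the variance prior, the filter, normalization, array weights, replicate blocks, 1 probe set per gene, the compared groups alone, both doubted arrays left out and each array left out in turn.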

Additional observations from a re-analysis of the deposited data

Results flagged for a closer look

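In 14 of the 144 sets of arrays examined, 1 group on 1 probe set each, a single array lay far from the others of its group; chance gives about 1 in 20. On the array of 129 female vector 1(3), which has a low upper quartile, Asah1 read 11.46 where the others gave 13.48 to 13.56, Lamp2 1428094_at 11.70 against 12.80 to 12.93, and Ctsl 1457724_at 2.84 against 2.46 to 2.52, at background. On B6 female Cdca7l 6(3), Ctsb 1448732_at read 10.90 where the others gave 13.58 to 13.76, and Lamp2 1416343_a_at 11.64 against 12.13 to 12.21. On B6 female Cdca7l 4(5), Asah1 read 12.78 against 13.24 to 13.32, and Galc 1449900_at 2.50 against 2.66 to 2.68, at background. On 129 male vector 3(3), Ctsd read 13.97 against 13.61 to 13.70, and Ctsl 1457724_at 2.65 against 2.46 to 2.49. Hexa read 12.97 on 129 female Cdca7l 2(1), against 12.55 to 12.61. Lamp1 read 14.01 on B6 male vector 3(5), against 14.22 to 14.29. Lamp2 1428094_at read 13.13 on 129 male Cdca7l 5(1), against 12.74 to 12.81. Ctsb 1444987_at, at background throughout, read 2.66 on 129 male Cdca7l 3(3), against 2.04 to 2.06, and 2.83 on B6 male Cdca7l 3(5), against 2.04 to 2.07.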

How the results depend on the processing

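With each array left out in turn, the strain difference of Galc 1452907_at stayed between 9.16 and 9.26 and that of Ctsl 1457724_at between 6.21 and 6.48; with values raised to background, an alternative chosen after seeing the data, they were 8.75 and 5.62. Array weights moved 3 Ctsb strain differences most, to 1.16 (1448732_at), 1.32 (1417492_at) and 1.26 (1417491_at). Near-zero Cdca7l differences of Galc 1420547_at changed sign: averaged, -0.032 after quantile normalization, -0.069 after array centring, -0.082 with weights and -0.23 without both doubted arrays; in B6 females -0.10, -0.10, -0.058 with a random and -0.18 with a fixed replicate block, and -0.25 without both arrays; in 129 females -0.033 with weights and -0.13 without both. That of Ctsl 1457724_at turned to 0.12 with weights, 0.000380 with the fixed block and 0.024 without both. Leaving out single arrays gave -0.16 to 0.10 averaged, -0.25 to 0.14 in B6 females, -0.13 to 0.91 in 129 females and -0.041 to 0.43 in B6 males for Galc 1420547_at, and -0.16 to 0.12 for Ctsl 1457724_at.

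Counts of calls over all probe sets moved as follows. Array centring gave 1 in B6 females and 2 in B6 males for Cdca7l, 44 between the sexes, 12 pathway genes lower in B6, and -0.073 for Lamp1. Array weights, whose estimate stopped before its tolerance, gave 3, 98, 73 and 51 for Cdca7l in 129 females, 129 males, B6 females and B6 males, 6437 between the sexes and 6227 for strain by sex with 3 probe sets of the 8 genes in each, 12132 between the strains, and 31 pathway genes higher and 22 lower. The random replicate block gave 1, 1 and 4 for Cdca7l in 129 females, B6 females and B6 males, 19 between the sexes, 4249 between the strains and 3 pathway genes lower; the fixed replicate block on paired arrays gave 1 for averaged Cdca7l. Neither block called any of the 16 probe sets. Without both doubted arrays there was 1 call for Cdca7l in 129 males, 1 in B6 females and 1 in B6 males, 260 between the sexes and 11 pathway genes lower. The compared groups alone gave 2 for Cdca7l in 129 males. One probe set per gene gave 1 for Cdca7l in B6 females, 34 between the sexes, 1 for strain by sex and 3417 between the strains, and a trended prior 3 for strain by sex. With single arrays left out, calls ran from 0 to 1 for Cdca7l in 129 females and in 129 males, 0 to 2 in B6 females, 0 to 3 in B6 males, 35 to 947 between the sexes (947 without 129 female Cdca7l 1(3)), 0 to 411 for strain by sex (411 without the same array), 5308 to 7724 between the strains, and 3 to 10 pathway genes lower; none of the 16 probe sets was called in these. The cause was not tested for any of these shifts.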

Other observations

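On 1452907_at of Galc, the genes with the most similar values over the 37 arrays were Trim12a (r = 0.99), Adi1 (0.99), Zfp874a (0.99), Mocs1 (0.99) and Lztfl1 (0.98), a comparison added after the values were seen. Each of them is among the 10 probe sets that were bright in one strain only, so these correlations restate the strain.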
